A study of Homo sapiens with 7 samples.

Results

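Apart from F13A1, held mainly in the cytosol, the genes described here encode proteins loaded into platelet alpha granules or secreted by platelets on activation. They are 8 genes chosen by function, the chemokines PF4 and PPBP, the adhesive proteins VWF, THBS1 and MMRN1, the membrane receptor SELP, the proteoglycan SRGN and the coagulation factor subunit F13A1. Each symbol matched 1 of the 62238 Ensembl genes counted in the RNA-seq, and 7 of the 8 had the 30 reads over all libraries that testing required. PF4 did not. The RNA-seq held 3 libraries of MEG-01, an established human megakaryoblastic leukemia line grown in RPMI1640 with 10% FBS. One library came from control cells, 1 from a line that stably expresses the hairpin RNA shRBM15#1 and 1 from a line with shRBM15#2, both directed at the RNA-binding protein RBM15. The labels give passage 5 and lentiviral transgenes for all 3 cultures, so whether the control carried an empty vector is not settled by the sources used here. A RIP-seq experiment in the same cell line, in which RNA cross-linked to RBM15 was recovered with an antibody and compared with normal IgG, gave 4 further libraries, 2 labelled with each antibody.

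Megakaryocytes are the bone marrow cells that shed platelets. Alpha granules are the most numerous storage granules of platelets. Their cargo is partly made by the megakaryocyte itself, as with PF4, PPBP, VWF and multimerin 1, and partly taken up from plasma, as with fibrinogen. On activation the granules fuse with the surface, release chemokines, adhesive proteins and clotting factors, and expose P-selectin, which binds leukocytes. As a member of the SPEN family, RBM15 binds RNA, and the study used its knockdown in MEG-01 cells to examine splicing.

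The control library had 53230029 reads on exon bins (non-overlapping segments of the exons of a gene), the shRBM15#1 library 41629454 and the shRBM15#2 library 52458857. Reads that fell in no bin made up 21.6%, 30.4% and 21.9% of the total, in which a read on several bins counts once in each. By this measure the shRBM15#1 library stood apart from the other 2. It also had the most bins with at least 1 read, 473473 of 625148, against 410882 in the control and 445666 with shRBM15#2. Values are therefore given for each line on its own as well as for both. Levels are in CPM, counts scaled to the size of each library after TMM normalization, when 1 gene is compared between libraries. They are scaled by the length of the exon bins and the reads on bins (RPKM) when genes are compared with each other.

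The RBM15 gene itself had 3970 control reads, 1957 in the shRBM15#1 line and 2121 in the shRBM15#2 line (80.2, 43.7 and 40.7 CPM). Both lines lay below the control and close to each other. The log2 fold change was -0.93 (standard error 0.23, lower in 2 of 2 lines), and with an adjusted p of 0.091 (edgeR's quasi-likelihood test with Benjamini-Hochberg adjustment) it did not pass the limit of 0.01. The target sequences of both hairpins are shown because each line rests on a single hairpin, and each is given 5′ to 3′ with its place on the plus strand of GRCh37.
shRBM15#1 (chr1:110882526-110882545): gcggaatacaagactctgaa
shRBM15#2 (chr1:110884588-110884607): ccaatggttatgccattctt
Both 20-base targets lie in coding sequence within exon bin 002 of RBM15, which held 2876, 1296 and 1451 reads. Among the annotated transcripts each target matched RBM15 and no other gene over its whole length. The longest run that a transcript of a granule gene shared with a target was 11 bases for shRBM15#1, in THBS1, and 9 bases for shRBM15#2, in PF4.

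Markers of the megakaryocyte lineage were present in part. Of 16 megakaryocyte markers, 15 were matched to a count (GP1BB was not) and 13 were tested. The most abundant in the control was ITGA2B, the platelet integrin alpha chain, at 154 RPKM, and the transcription factors GATA1 and NFE2 stood at 44.5 and 67.0 RPKM. Other defining markers were near 0, with 2, 2 and 5 reads for GP9 and 2, 1 and 4 for MYL9 in the control, shRBM15#1 and shRBM15#2 libraries. The summed level of the 15 markers was 1352, 953 and 1184 CPM. In bulk RNA, fewer cells of a type and less RNA per cell cannot be told apart, and this holds for every gene below.

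By level per length in the control, the 8 granule genes spanned from 83.6 RPKM for SRGN to 0.034 RPKM for VWF. F13A1 followed SRGN at 8.34 RPKM and PPBP stood at 3.10 RPKM. SELP and THBS1 lay next to each other at 2.44 and 2.44 RPKM, and their 95% Poisson intervals overlapped. MMRN1 had 0.225 RPKM and PF4 0.0933 RPKM, so 5 of the 8 were above 1 RPKM in the control. SRGN was also the highest of the 8 in both knockdown lines, at 109 RPKM with shRBM15#1 and 138 RPKM with shRBM15#2. The order below it changed. THBS1 was next with shRBM15#1 at 10.4 RPKM, and its interval overlapped that of PPBP at 9.21 RPKM. With shRBM15#2 PPBP was next at 79.1 RPKM.

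**Figure D1:**
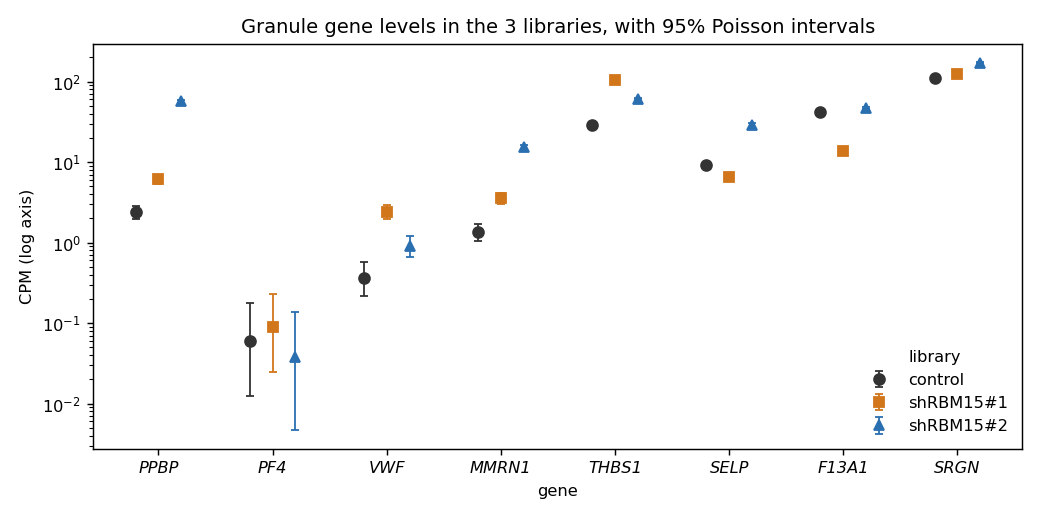
Level of each granule gene (horizontal axis) in CPM on a log axis, with 1 point for each of the 3 libraries and bars for the 95% exact Poisson interval, which covers counting error only. PPBP, MMRN1 and SELP are highest with shRBM15#2, VWF and THBS1 are highest with shRBM15#1, and the 3 PF4 intervals overlap.

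No granule gene passed the test of both knockdown lines against the control. By edgeR's quasi-likelihood test at an adjusted p under 0.01, 0 of the 7 tested genes were called, beside 0.346% of the 24887 genes tested, and at an adjusted p under 0.05 again 0 of 7, beside 1.74%. With other scalings none of the 7 passed 0.01, but 1 passed 0.05 with DESeq2 size factors (THBS1), beside 2.48% of all tested genes, and 3 with upper-quartile scaling (PPBP, THBS1 and MMRN1), beside 3.73%. At an unadjusted p under 0.05, 4 of the 7 passed (PPBP, VWF, THBS1 and MMRN1), beside 18.8% of all tested genes. Since there was 1 control library, the p-values measure only the spread between the 2 knockdown lines, with 1 residual degree of freedom per gene. With the DESeq2 Wald test in place of edgeR, 1 of the 7 was called at 0.01 (THBS1), beside 2.11% of genes. When every gene with at least 1 read was fitted, 3 of 8 were called (PPBP, MMRN1 and THBS1), beside 1.5%. In both lines 5 of the 7 were higher than the control, beside 39.7% of all tested genes with any difference upward in both lines, and the other 2 (SELP and F13A1) lay on opposite sides of the control.

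The 2 knockdown lines differed from each other in most of the granule genes. The levels of 5 of the 7 tested granule genes were more than 2-fold apart between the lines, beside 14.7% of all tested genes, and 4 of these 5 (PPBP, SELP, MMRN1 and F13A1) were higher with shRBM15#2. Among genes with 300 or more reads over the 3 libraries, 4 of 6 were more than 2-fold apart, beside 3.93%. MMRN1, among the 4, reached 300 only through its 793 reads with shRBM15#2, so this count is no separate check. The median size of the log2 ratio between the lines was 1.77 for the 7 and 0.34 for all tested genes. With 1 library per line this difference has no replicate check, and the intervals given for ratios between lines cover counting error only.

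**Figure D2:**
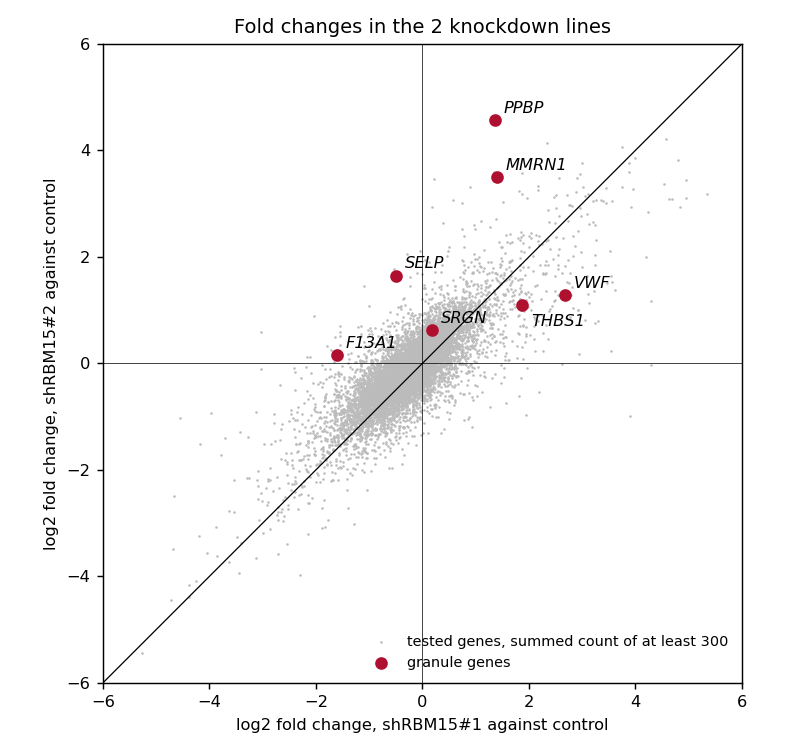
Log2 fold change against the control in the shRBM15#1 line (horizontal axis) and the shRBM15#2 line (vertical axis), for the 7 tested granule genes (large points) and for all tested genes with 300 or more reads over the 3 libraries (small points), with a diagonal line of equal change. Both axes share 1 control library, so an error in the control moves a point along the diagonal. PPBP, MMRN1, SELP and F13A1 lie above the diagonal, THBS1 and VWF below it.

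The 2 chemokines of the CXC family lay far apart in level. PPBP (ENSG00000163736, minus strand of chromosome 4 from 74852755 to 74853914, GRCh37) encodes platelet basic protein, the precursor from which the neutrophil attractant NAP-2 is cleaved. It was counted 118 times in control cells, 274 times in shRBM15#1 cells and 2968 times in shRBM15#2 cells (2.38, 6.12 and 56.9 CPM). The shRBM15#2 library stood far above the other 2, and the 3 Poisson intervals did not overlap. The log2 fold change was 1.36 in the shRBM15#1 line, 4.57 in the shRBM15#2 line and 3.72 over both (standard error 1.12), with an adjusted p of 0.145 from edgeR's test and Benjamini-Hochberg adjustment. The shRBM15#2 level was 9.30 times that of shRBM15#1 (95% interval 8.21 to 10.6), and of all 24887 tested genes 6 had a larger ratio in that direction, PPBP being number 7. Over its 3 exon bins the log2 ratio between the lines ran only from 2.97 to 3.48.

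PF4 (ENSG00000163737, minus strand of chromosome 4 from 74846794 to 74847841) is platelet factor 4, a heparin-binding chemokine that lies next to PPBP and is a classical marker of the megakaryocyte lineage. Only 3 reads were counted in control cells, 4 in the shRBM15#1 line and 2 in the shRBM15#2 line. All 3 counts lay at or next to the floor of 3 reads, so no fold is given. The upper end of the Poisson interval allows 0.177, 0.229 and 0.138 CPM. Its near-identical copy PF4V1 had 1, 1 and 0 reads, so few reads of this pair were assigned to either gene. Reads that fit both copies equally well were not traced here.

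VWF (ENSG00000110799, minus strand of chromosome 12 from 6058040 to 6233936) encodes von Willebrand factor, which tethers platelets to injured vessel walls. It was counted 18 times in control cells, 107 times in shRBM15#1 cells and 47 times in shRBM15#2 cells (0.364, 2.39 and 0.901 CPM). The Poisson intervals of both lines lay above that of the control, shRBM15#1 the more so. A read on several bins counts once in each, so these intervals are too narrow. Log2 fold changes were 2.68 and 1.28 in the lines and 2.16 over both (standard error 0.74, adjusted p = 0.182 from edgeR's quasi-likelihood test). The reads were thinly spread. A read was seen in 14 of 69 exon bins in control cells, in 52 bins in shRBM15#1 cells and in 31 bins in shRBM15#2 cells, and no bin held more than 7 reads in a library. VWFP1, a partial copy of VWF on chromosome 22, had 0, 4 and 3 reads, and reads of the copied stretch are uncertain.

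At the level of VWF, gene values were spread widely around the control. Among 3267 genes with a mean of 1 to 3 CPM, the class that holds VWF, 19.5% were more than 2-fold higher with shRBM15#1 and 12.7% with shRBM15#2, 8.94% and 10.0% were more than 2-fold lower, and the median log2 differences were 0.03 and -0.05. In the class below, 6563 genes with a mean of 0.3 to 1 CPM, the shares higher were 39.5% and 20.5%, the shares lower 5.04% and 7.42%, and the medians 0.59 and 0.23. At a mean of 3 to 10 CPM, the class of MMRN1, the shares higher were 7.41% and 7.05% and the shares lower 12.6% and 9.01%. At 10 to 30 CPM, the class of PPBP and SELP, 2.96% and 3.35% were higher and 10.7% and 6.46% lower. The classes rest on the mean of the 3 libraries, so a gene can enter one through a library in which it is high. In the control VWF, MMRN1, PPBP and SELP stood at 0.364, 1.33, 2.38 and 9.17 CPM, each below the lower limit of its class. The part of this spread, of the shift in the class below, and of the larger share of reads outside bins in the shRBM15#1 library, in the VWF values was not tested.

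**Figure D3:**
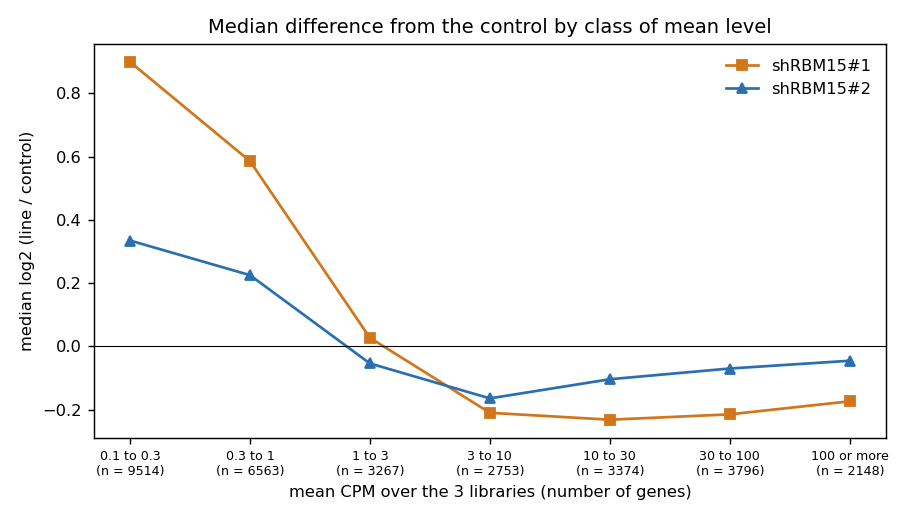
Median log2 ratio of each knockdown line to the control (vertical axis) over all genes in 7 classes of mean CPM (horizontal axis, number of genes in brackets). Genes of low level are higher in both lines, with a median of 0.90 for shRBM15#1 and 0.33 for shRBM15#2 at 0.1 to 0.3 CPM, whereas from 3 CPM upward the medians lie between -0.23 and -0.05.

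MMRN1 (ENSG00000138722, plus strand of chromosome 4 from 90800683 to 90875780) encodes multimerin 1, a very large polymer that holds factor V inside the granule. It was counted 66 times in control cells, 158 times in shRBM15#1 cells and 793 times in shRBM15#2 cells (1.33, 3.53 and 15.2 CPM). As with PPBP, the shRBM15#2 library was the highest and the intervals of the 3 libraries did not overlap. The log2 fold change was 1.40 and 3.50 in the lines and 2.81 over both (standard error 0.80), and the adjusted p from edgeR's test was 0.129. The ratio between the lines was 4.31 (3.63 to 5.14). All 11 bins with 30 or more reads over all libraries were higher than the control in both lines. They were also higher with shRBM15#2 than with shRBM15#1. Most of these bins reached 30 only through shRBM15#2, such as bin 005 with 1, 7 and 36 reads, so this count is no separate check. F5, which encodes the factor V that multimerin 1 binds, had only 14, 59 and 50 reads.

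THBS1 (ENSG00000137801, plus strand of chromosome 15 from 39873280 to 39891667) encodes thrombospondin 1, an adhesive glycoprotein that links platelets to the matrix and activates latent TGF-beta. It was counted 1410 times in control cells, 4687 times in shRBM15#1 cells and 3191 times in shRBM15#2 cells (28.5, 105 and 61.2 CPM). Both lines lay well above the control, and here the shRBM15#1 library was the higher. The log2 fold change was 1.88 and 1.10 in the lines and 1.54 over both (standard error 0.34), and its adjusted p of 0.069 from edgeR's test was the smallest of the 7. Over the alternative settings this adjusted p ran from 0.0023 to 0.167. The level with shRBM15#2 was 0.584 times that with shRBM15#1 (0.558 to 0.611). All 34 bins with 30 or more reads over all libraries were higher than the control in both lines, and 33 of them were higher with shRBM15#1. Among 9318 genes with a mean of at least 10 CPM, those with the most similar course over the 3 libraries were TBC1D30, with 213, 734 and 501 reads (Euclidean distance of centred log2 values 0.032), and ODF2L, with 945, 3312 and 2264 reads (0.058). CD36, a receptor of thrombospondin 1, rose in both lines and is described with the granule membrane.

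SELP (ENSG00000174175, minus strand of chromosome 1 from 169558087 to 169599431) encodes P-selectin, the leukocyte receptor that moves from the granule membrane to the platelet surface. It was counted 454 times in control cells, 290 times in shRBM15#1 cells and 1501 times in shRBM15#2 cells (9.17, 6.48 and 28.8 CPM). The lines lay on opposite sides of the control, at log2 fold changes of -0.50 and 1.65, and neither interval overlapped that of the control. Over both lines the value was 0.94 (standard error 0.70, adjusted p = 0.50 from edgeR's quasi-likelihood test). The shRBM15#2 level was 4.44 times that of shRBM15#1 (3.91 to 5.06). All 23 bins with 30 or more reads over all libraries were higher than the control with shRBM15#2, and 5 of the 23 with shRBM15#1. Some of the 23 reached 30 only through shRBM15#2, such as bin 002 with 15, 7 and 49 reads.

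F13A1 (ENSG00000124491, minus strand of chromosome 6 from 6144318 to 6321246) encodes the catalytic subunit of factor XIII, the transglutaminase that cross-links fibrin. In platelets this subunit is held mainly in the cytosol. It was counted 2082 times in control cells, 617 times in shRBM15#1 cells and 2453 times in shRBM15#2 cells (42.1, 13.8 and 47.0 CPM). The shRBM15#2 library was close to the control and the shRBM15#1 library far below it. Log2 fold changes were -1.61 in the shRBM15#1 line and 0.16 in the shRBM15#2 line, and -0.47 over both (standard error 0.55, adjusted p = 0.690 from edgeR's quasi-likelihood test). The ratio between the lines was 3.41 (3.12 to 3.73). With shRBM15#1, 0 of 21 bins with 30 or more reads over all libraries were higher than the control, and with shRBM15#2 16 of 21 were.

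SRGN (ENSG00000122862, plus strand of chromosome 10 from 70847862 to 70864567) encodes serglycin, the proteoglycan on which PF4 and other positively charged cargo is stored. It was counted 5428 times in control cells, 5544 times in shRBM15#1 cells and 8845 times in shRBM15#2 cells (110, 124 and 170 CPM). The 3 libraries lay closer together than for any other tested member, with shRBM15#2 the highest. In the lines the log2 fold change was 0.18 and 0.63, and over both 0.42 (standard error 0.26, adjusted p = 0.420 from edgeR's quasi-likelihood test). All 5 bins were higher with shRBM15#2 than with shRBM15#1.

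No exon bin was called apart from its gene. Of the 194 bins of the 8 genes, 97 bins in 6 genes had the 30 reads needed for the test of exon usage, which compares the change of a bin with that of its gene. At the limits of the study (fold above 1.2, unadjusted p under 0.05), 0 of the 97 were called with edgeR's diffSpliceDGE, beside 1.45% of all bins tested. At an adjusted p under 0.05 the count was 0 of 97, beside 0.0205%. When every bin with at least 1 read was fitted, 1 of 180 bins passed the limits of the study, in VWF, beside 1.77% of all such bins. The smallest p of a bin was 0.442 in THBS1, for bin 015 (chromosome 15 from 39880243 to 39880419, relative log2 fold change 0.74). In MMRN1 it was 0.554 for bin 015 (chromosome 4 from 90874148 to 90874606), which held 2, 20 and 77 reads. The spread between the lines enters this test too. The reads were taken as not strand-specific, so reads of a gene and an antisense partner cannot be told apart. The genes that overlap a member had at most 5 reads in a library, in MIR5683 within F13A1.

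**Figure D4:**
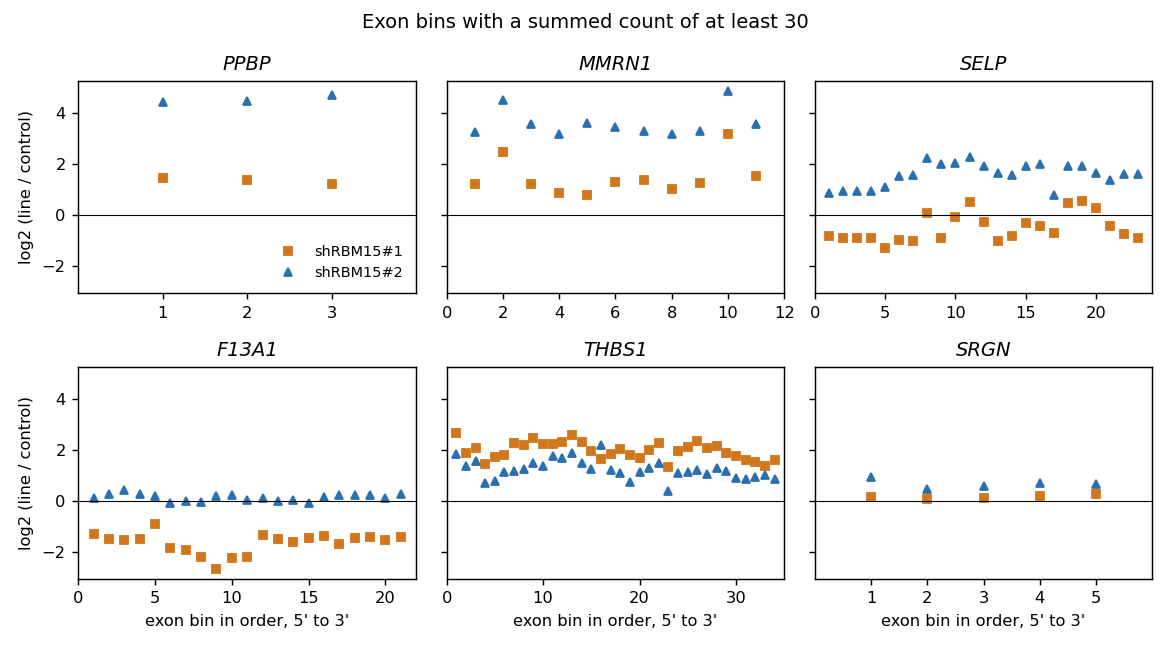
Log2 ratio of each knockdown line to the control (vertical axis) in the exon bins with 30 or more reads over all libraries, in order from 5′ to 3′ (horizontal axis), for the 6 members that had such bins. In PPBP, MMRN1, SELP, F13A1 and SRGN every bin is higher with shRBM15#2 than with shRBM15#1, and in THBS1 33 of 34 are lower. The limit of 30 reads is on the sum over all libraries, so a bin can pass it through a library in which it is high.

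Promoter windows in the RefSeq table (GRCh38.p14) were found for 5 of the 8 genes, PPBP, SELP, MMRN1, F13A1 and THBS1. The 250 bases before the start are shown for genes with 1 annotated start, 3 that were higher with shRBM15#2 than with shRBM15#1 and THBS1, which was lower. Each reads 5′ to 3′ toward the start. Capitals mark matches on either strand to AGATAA, a form of the GATA motif, TGTGGT, the RUNX core, and AGGAAG, a form of the ETS motif.
PPBP (chr4:73988191-73988440, minus strand): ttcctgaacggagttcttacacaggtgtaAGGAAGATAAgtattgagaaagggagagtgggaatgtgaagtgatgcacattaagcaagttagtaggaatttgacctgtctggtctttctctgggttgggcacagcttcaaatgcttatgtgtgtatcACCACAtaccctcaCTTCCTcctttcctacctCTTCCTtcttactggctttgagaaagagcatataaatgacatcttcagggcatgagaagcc
SELP (chr1:169630125-169630374, minus strand): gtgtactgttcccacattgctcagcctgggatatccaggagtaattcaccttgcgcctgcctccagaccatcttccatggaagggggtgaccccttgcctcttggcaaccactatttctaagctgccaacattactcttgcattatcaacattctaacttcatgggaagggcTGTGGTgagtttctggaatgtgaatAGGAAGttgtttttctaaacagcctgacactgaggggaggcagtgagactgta
F13A1 (chr6:6320663-6320912, minus strand): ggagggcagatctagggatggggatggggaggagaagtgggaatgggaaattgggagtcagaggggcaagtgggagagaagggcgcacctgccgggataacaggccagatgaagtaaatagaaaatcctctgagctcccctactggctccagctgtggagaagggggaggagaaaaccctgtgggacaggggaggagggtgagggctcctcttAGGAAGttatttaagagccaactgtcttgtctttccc
THBS1 (chr15:39580829-39581078, plus strand): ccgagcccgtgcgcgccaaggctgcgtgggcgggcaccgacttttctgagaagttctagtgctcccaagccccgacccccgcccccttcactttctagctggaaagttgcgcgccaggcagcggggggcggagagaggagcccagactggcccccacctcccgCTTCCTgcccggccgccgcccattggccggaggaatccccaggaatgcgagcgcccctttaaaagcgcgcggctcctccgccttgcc
PPBP held all 3 motifs, with 1 match to AGATAA that overlaps 1 of its 3 matches to AGGAAG, and 1 match to TGTGGT. SELP held TGTGGT and AGGAAG, and F13A1 and THBS1 held AGGAAG. MMRN1, which has more than 1 annotated start, is not shown. Its window at chr4:89894604-89894853 held 1 match to AGGAAG, and that at chr4:89879261-89879510 held none of the motifs. Of all 35116 windows of this length in the table, 9.17% held AGATAA, 11% held TGTGGT and 28.7% held AGGAAG. The G and C content was 43.6% in PPBP, 48.4% in SELP, 55.6% in F13A1 and 69.6% in THBS1, beside a median of 58% over all windows. A match is a description of letters only.

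None of the 8 genes was among the RIP-seq sites. The deposited list holds 1515 sites with 1014 distinct symbols and only sites past the filter of the authors, so a gene that is missing was not listed, which is not the same as not bound. By symbol, 0 of the 8 genes had a site, beside 3.65% of all tested genes, and 0 of 8 had a site that overlapped the gene span or lay within 10 kb of it. At 3.65% a count of 0 among 8 genes is near the background. The nearest site to a member was 291 kb from SELP, in the 3′UTR of KIFAP3. The reads of the RIP-seq libraries differed more within each label than between labels, and the depth of the libraries is unknown here. Over all sites the libraries labelled normal IgG had 28387 and 610915 reads and those labelled anti-RBM15 had 28845 and 807871, so values are given by library and no comparison between antibodies is made.

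The other proteins of alpha-granule cargo were followed with a list of 50 genes, of which 49 were matched (CCL3 was not) and 44 were tested. With edgeR, 0 rose and 2 fell at an adjusted p under 0.01, and 3 were higher and 3 lower at an adjusted p under 0.05, beside 0.346% and 1.74% of all tested genes in either direction. The median log2 fold change was 0.96, beside 0.02 for all tested genes, and 1.54 for the 7 tested granule genes. In both lines 27 of the 44 were higher than the control and 8 were lower, beside 39.7% and 39.5% of all tested genes. Of the 29 cargo genes with 300 or more reads over the 3 libraries, 14 were higher and 7 lower in both lines. Among all genes with as many reads 28.2% were higher and 52% lower. The median of the 29 was 0.30, beside -0.14. Some of the 14, such as A2M, reached 300 only through the knockdown lines, in which they were high. The genes that fell were TIMP3, an inhibitor of matrix metalloproteinases, with 14200, 1530 and 1957 reads (log2 fold change -3.0, standard error 0.22, adjusted p = 0.00107), and VEGFA, the endothelial growth factor, with 30838, 3292 and 5565 reads (-2.79, standard error 0.26, adjusted p = 0.00316). In the shRBM15#1 and shRBM15#2 lines the log2 fold changes were -3.07 and -2.94 for TIMP3 and -3.08 and -2.55 for VEGFA. With only genes of at least 300 reads in the fit, 0 of 12994 genes passed 0.01. These 2 calls, and each call at 0.01 in the lists below, ended in that setting. Clusterin, encoded by CLU, had 459, 1719 and 2467 reads (2.21, adjusted p = 0.012 from edgeR), and the protease inhibitor A2M had 61, 367 and 581 reads (2.97, adjusted p = 0.015 from edgeR). The most abundant cargo gene in the control was APP, the amyloid precursor, at 134 RPKM.

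The summed level of the 49 cargo genes was 2989, 1868 and 2605 CPM in the control, shRBM15#1 and shRBM15#2 libraries, most of it from a few genes. More than 2-fold apart between the lines were 11 of the 44, 5 higher with shRBM15#2 and 6 with shRBM15#1, beside 14.7% of all tested genes. With 300 or more reads it was 6 of 29, beside 3.93%, and a gene can pass that limit through the line in which it is high. PF4V1, CCL5 and VTN had at most 3 reads in every library. Many of the cargo genes higher in both lines were at low counts. Albumin, which platelets take up from plasma, had 11, 82 and 50 reads, and FGB, for the beta chain of fibrinogen, had 0, 27 and 16. Set against a floor of 3 reads in the control library, FGB stood at 9.95-fold with shRBM15#1 and 5.06-fold with shRBM15#2. Counting error is not included in these folds. The shares of low-level genes more than 2-fold higher in each line, given beside VWF, apply to these too, and their part in the median of this list was not tested.

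The granule membrane list had 17 genes, of which 16 were matched (PECAM1 was not) and tested. CD36, the scavenger receptor for thrombospondin and fatty acids, was the 1 gene that rose at an adjusted p under 0.01, and none fell. Of all tested genes 0.346% were called in either direction. Its count was 186 in control cells, 2616 in the shRBM15#1 line and 1902 in the shRBM15#2 line. By edgeR the change was 3.66 ± 0.39 (log2 ± standard error), with an adjusted p of 0.00497. The tetraspanin CD9 had 29, 197 and 290 reads (3.08, adjusted p = 0.020 from edgeR). CD63, the tetraspanin of dense granules and lysosomes, was the most abundant in the control at 197 RPKM, with a log2 fold change of 0.18. On the lower side, the adjusted p from edgeR was 0.124 for CD109 (-1.03) and 0.248 for LAMP2 (-0.66). The median of the list was 0.17, beside 0.02 for all tested genes, and the summed levels were 1923, 1640 and 2094 CPM.

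Genes that form, fill and sort granules, 29 in all, were matched and tested without exception. At an adjusted p under 0.01 from edgeR 0 rose and 0 fell, beside 0.346% of all tested genes called in either direction. The median log2 fold change was -0.31, with 7 higher and 16 lower in both lines. All 29 had 300 or more reads over the 3 libraries, and among all genes with as many reads 28.2% were higher and 52% lower in both lines, with a median of -0.14, so the counts of this list lay near the background. HPS4, a subunit of the complex that builds lysosome-related organelles, had -0.81 (adjusted p = 0.118 from edgeR), and the sorting nexin SNX1 had -0.66. GFI1B, a transcription factor needed for alpha granules, had 837, 1298 and 2869 reads (1.31, adjusted p = 0.139 from edgeR). HPS6 had 1.02. The most abundant in the control was RAB32 at 36.9 RPKM. NBEAL2, whose loss empties alpha granules in gray platelet syndrome, had 5112, 2707 and 3867 reads (-0.62), and VPS33B had 3132, 2517 and 3064 (-0.14). These 2 were chosen for their known role after the values had been seen.

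Genes of granule release are the SNARE proteins and their regulators. By edgeR at 0.01, 0 of 31 were called in either direction, beside 0.346% of all tested genes. The median log2 fold change was -0.16, with 6 higher and 14 lower in both lines. For the 30 with 300 or more reads the counts were 5 and 14 and the median -0.17, beside the same 28.2%, 52% and -0.14 for all such genes. EXOC4, a subunit of the exocyst, had -0.88 (adjusted p = 0.095 from edgeR) and VAMP7 had -1.03 (0.173 from edgeR). The synaptotagmin-like SYTL5 had 11, 132 and 44 reads and the Rab27 effector MYRIP had 83, 147 and 247. STXBP5, a syntaxin-binding regulator, was the most abundant in the control at 77.4 RPKM. The summed levels were 2585, 2118 and 2614 CPM for release and 1735, 1313 and 1576 CPM for formation, lowest with shRBM15#1 in both lists.

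Of the 125 matched genes on these 4 granule lists, 9 had at least 1 RIP-seq site, which is 7.2%, beside 3.65% of all tested genes, and together they had 13 sites. They were TGFB1 and ANXA5 of the cargo, the dense granule amine transporter SLC18A2, GFI1B, AP3D1 and VPS41 of granule formation, and STXBP5, PRKCB and PLEK of release. The 3.65% covers tested genes of every level, and no share among genes of like level was taken. PRKCB, for protein kinase C beta, had 3 intronic sites. At its site on chromosome 16 from 23945006 to 23945359 (hg19) the libraries labelled normal IgG had 19 and 624 reads and those labelled anti-RBM15 had 12 and 1213. The intronic site of SLC18A2 on chromosome 10 from 119028569 to 119028872 had 16, 733, 14 and 1130 reads in the same order.

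**Figure D5:**
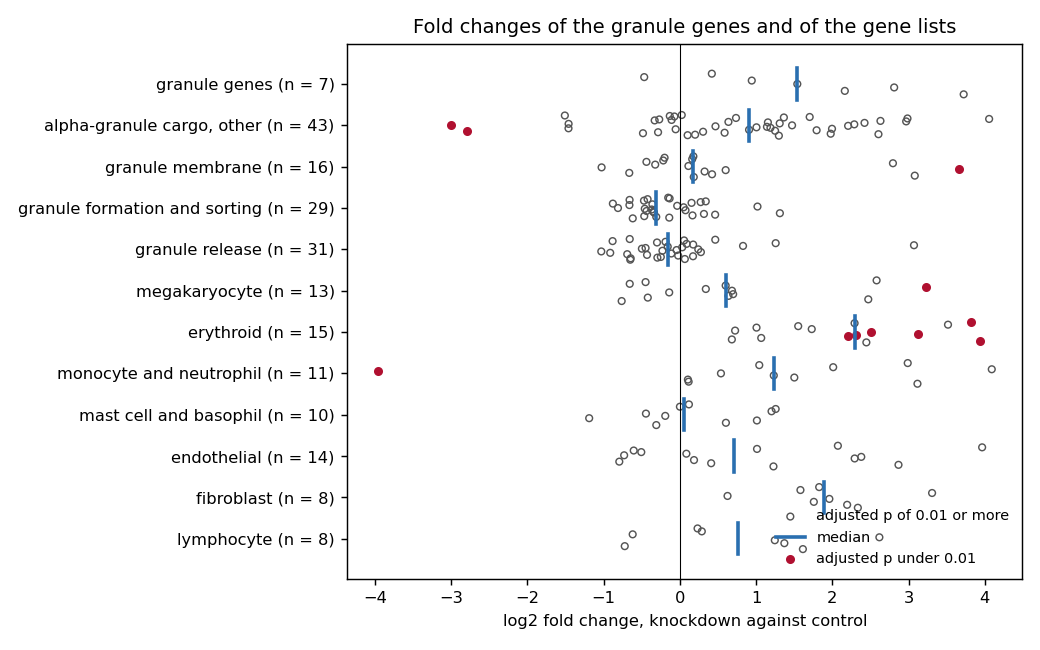
Log2 fold change of knockdown against control (horizontal axis) for each tested gene of the granule genes, the 4 granule lists and the 7 lists of cell type markers (vertical axis, number of genes shown in brackets), with the median of each list as a bar. Filled points passed an adjusted p under 0.01, and FGB, with no read in the control, is left out. The erythroid list has 6 filled points to the right of 0, and the granule genes have none.

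Markers of other cell types were listed in the same way. Of 16 erythroid markers, 15 were tested, 14 were higher in both lines, beside 39.7% of all tested genes, and 6 rose at an adjusted p under 0.01 from edgeR (HBA2, HBG1, HBG2, HBE1, ALAS2 and HEMGN), beside 0.346% called in either direction. Of the 14 with 300 or more reads 13 were higher in both lines, beside 28.2%. Some of the 13 reached that sum only through the knockdown lines, such as SLC4A1 with 56, 771 and 458 reads. This count is therefore no separate check. With only genes of at least 300 reads in the fit, 0 of 12994 genes passed 0.01, so the 6 calls ended there. The median log2 fold change of the 15 tested was 2.29, and the summed level of the 16 was 1331, 7776 and 7435 CPM in the control, shRBM15#1 and shRBM15#2 libraries. The most abundant was HBG2, the fetal gamma globin, at 451 RPKM in the control. Of the 13 tested megakaryocyte markers 7 were higher and 5 lower in both lines, and for the 10 with 300 or more reads the counts were 5 and 5, beside 28.2% and 52% of all genes with as many reads. Only TUBB1, the tubulin of the platelet marginal band, rose at an adjusted p under 0.01, with 52, 486 and 464 reads (adjusted p = 0.0099 from edgeR). TUBB1 reached 300 reads only through the knockdown lines, in which it was high. ITGA2B, the most abundant in the control, had 45463, 21287 and 31658 reads (log2 fold changes of -0.95 and -0.60 in the lines). ITGB3, its partner chain, had 311, 803 and 2702 reads, which is the order of the libraries seen for PPBP and MMRN1. The part of these shifts in the values of the granule genes was not tested.

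Of 16 monocyte and neutrophil markers 11 were tested. With edgeR 1 fell at an adjusted p under 0.01, beside 0.346% of all tested genes called in either direction. This was CTSG, from 4741 reads to 167 and 446, which was also the most abundant of the list in the control at 64.8 RPKM. Most of the others lay the other way, with 7 of the 11 higher in both lines, only CTSG lower in both, and a median log2 fold change of 1.23, beside 39.7%, 39.5% and 0.02 for all tested genes. For the 7 with 300 or more reads the counts were 4 and 1. S100A8, among the 4, reached that sum only through the knockdown lines, in which it was high. At an adjusted p under 0.05 from edgeR 2 were higher, beside 1.74% of all tested genes called in either direction. They were the calcium-binding proteins S100A8 with 17, 366 and 190 reads (adjusted p = 0.0232 from edgeR) and S100A9 with 88, 302 and 397 reads (0.045 from edgeR). The summed levels, to which CTSG added most in the control, were 154, 93.9 and 117 CPM, and MRC1 had no read. None of the 10 mast cell and basophil markers (262, 227 and 241 CPM in sum), the 14 matched endothelial markers (479, 420 and 401 CPM), the 8 fibroblast markers (3.37, 17.8 and 14.4 CPM) or the 8 lymphocyte markers (8.06, 10.1 and 8.07 CPM) passed an adjusted p of 0.01 from edgeR. By level per length in the control library alone, the most abundant of these 4 lists were FCER1A at 46.0 RPKM, TIE1 at 34.1, LUM at 0.106 and CD3D at 3.17. VWF, SELP and MMRN1 are also made by endothelial cells. Of the 14 endothelial markers 7 were higher and 4 lower in both lines, beside 39.7% and 39.5% of all tested genes, with a median log2 fold change of 0.71. For the 9 with 300 or more reads the counts were 3 and 4 and the median 0.09. PLVAP, among the 3, reached that sum only through the knockdown lines, in which it was high. In this list 2 were higher at an adjusted p under 0.05 from edgeR, beside 1.74% of all tested genes called in either direction. These were KDR, a receptor for VEGF, with 757, 6592 and 3978 reads (2.87, adjusted p = 0.015 from edgeR), and PLVAP, a protein of endothelial fenestrae, with 11, 140 and 203 reads (3.97, adjusted p = 0.0137 from edgeR). The 4 lower in both lines were TIE1, ESAM, ERG and EGFL7, with TIE1 at 12136, 6034 and 7720 reads. The junction proteins CDH5 and CLDN5 had 14, 49 and 13 and 3, 20 and 11 reads. The part of these markers in the values of VWF, SELP and MMRN1 was not tested. Of the fibroblast markers 1 was higher at 0.05, beside 1.74% of all tested genes called in either direction. It was PDGFRA with 32, 228 and 405 reads (adjusted p = 0.0171 from edgeR). All 8 were higher in both lines than in the control, beside 39.7% of all tested genes. They had 16 to 32 reads each in the control, and 1 of the 8 had 300 or more reads over the 3 libraries, so the shares given beside VWF for low-level genes apply here too.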

How the data were processed

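The RNA-seq libraries (1 control, 2 knockdown lines) were aligned by the authors to GRCh37 with STAR, who deposited raw counts of reads on each exon bin (Ensembl GRCh37.70). How reads were counted is not given here. The authors' deposited DEXSeq table gave bin positions, with 809 wrapped lines left out, and its log2 fold changes and p-values were not used. The authors deposited raw counts for 1515 RIP-seq peaks, called on pooled coverage and kept at their FDR, aligned to hg19; the depth of these libraries is unknown here, and their fold changes were not used. Lines naming no gene, 23.2%, 32.0% and 23.5% of all counts, were left out.

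Bin counts were summed per gene, so a read on several bins counts once in each. Genes with 30 or more reads over the 3 libraries were fitted with edgeR 4.0.16 in R 4.3.3 (TMM, quasi-likelihood, Benjamini-Hochberg) and called at an adjusted p under 0.01. Log2 values of single lines used a prior count of 0.5. Exon usage was fitted with diffSpliceDGE. The code of both was run on simulated data, and no value printed here comes from that run. DESeq2 1.42.0 served as an alternative. Intervals are 95% exact Poisson or binomial and cover counting error only. They treat all counts as separate reads, so they are too narrow where a read fell on several bins. Folds against 0 use a floor of 3 reads. Symbols came from a newer annotation table, and 43036 of 62238 genes had one. Python 3.11.15, numpy 2.4.6, scipy 1.17.1 and pandas 2.3.3 were used.

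The members and lists were chosen with earlier results of these data known. Named genes are all members, RBM15, the list genes with the smallest adjusted p in each direction, called list genes, the most abundant of each list, and the 2 genes closest to the member with the smallest adjusted p. Motifs, classes of mean CPM, the lists at 300 or more reads, and F5, ALB, FGB, ITGB3, NBEAL2, VPS33B, CDH5, CLDN5 and the other markers named were chosen after seeing the data. The limit of 300 reads is on the sum of the 3 libraries, so a gene can pass it through the libraries in which it is high. Alternatives were other scalings, filters, tests, limits and counts, and each line alone.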

Additional observations from a re-analysis of the deposited data

Results flagged for a closer look

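SELP and F13A1 lay on opposite sides of the control in the 2 knockdown lines, F13A1 close to it with shRBM15#2. For SELP, the log2 fold change against the control was -0.50 with shRBM15#1 and 1.65 with shRBM15#2. For F13A1, the values were -1.61 with shRBM15#1 and 0.16 with shRBM15#2. The lines share the control library and there is 1 library per line, so the difference between the lines was not tested. Under DESeq2 size factors and upper-quartile scaling both genes stayed on opposite sides of the control in the 2 lines.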

How the results depend on the processing

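No granule gene passed the adjusted p of 0.01 with DESeq2 size factors or upper-quartile scaling (0 of 7 tested each), or with a summed count of at least 300 or the bin with the most reads as the gene's count (0 of 6 tested each). PF4 was tested in none of these and VWF not in the last 2. At 0.05, 0 of 7 passed in the original setting, 1 with DESeq2 size factors (THBS1, 0.0391 from edgeR) and 3 with upper quartile (PPBP 0.0436, THBS1 0.0129 and MMRN1 0.0368 from edgeR), beside 1.74%, 2.48% and 3.73% of all tested genes. With the DESeq2 Wald test 1 passed (THBS1) and with no filter on low counts 3 did, and the cause was not tested. The number of all genes called at 0.01 was 86 in the original setting, 191 with DESeq2 size factors, 335 with upper quartile, 525 with the Wald test, 801 with no filter, and 0 with at least 300 reads or the largest bin. In the last 2 settings the calls of list genes at 0.01 therefore ended too. Upper-quartile scaling moved the median of all genes from 0.02 to 0.21 on the log2 scale. The median log2 fold change of the 7 tested members was 1.54 with both lines and 1.28 to 1.36 with either line left out. With either line left out, SELP ran from -0.50 to 1.65 and F13A1 from -1.61 to 0.16, which turned the direction of both. Leaving out a line gave folds only, since 1 library on each side leaves no test. For the 7 tested members and RBM15 there were 54 single-gene values with a test under an alternative. Of these, 50 kept direction and side of the limit and 4 passed it. The 54 include the original fit of each gene read at 0.05. Of 16 folds of the same genes with a line left out, 14 kept direction and 2 turned. PPBP kept direction but went from 3.72 to 1.36 without shRBM15#2. With bins of at least 1 read, 1 bin of 180 passed the exon limits (1.77% of all such bins did), bin 006 of VWF, on 2 reads in the control and 0 in the lines. The 0 RIP-seq matches and the 5 members above 1 RPKM were the same under their alternatives, but SELP and THBS1 exchanged places in the order. No paired analysis was possible because there is 1 control library. PF4 and VWF had the fewest reads of the members.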
